A study of Mus musculus with 11 samples.

Results

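Lysosomal genes were followed in alveolar macrophages of mice injected with CpG: the proton pump (V-ATPase), the cathepsins, further acid hydrolases, membrane proteins of the lysosome and the transcription factor Tfeb. The set was chosen by gene symbol from 47 names, of which 43 had a transcript cluster with that symbol on the array, out of 19505 genes with a symbol. Atp6v0c, Ctsd, Glb1 and Cd68 were not analysed here. All 43 passed the filter on dim clusters and were tested, each with a single cluster. The dimmest averaged 9.28 on the log2 scale, where background lay at 6.12 to 6.24.

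The animals were female C57BL/6J mice purchased when 6 weeks old, each injected 5 times within 10 days. Controls (n = 4 arrays) were injected with PBS and their alveolar macrophages were collected on day 10. The acute group (n = 3) had CpG 1826 instead, an oligonucleotide ligand of Toll-like receptor 9 that serves here as a model of macrophage activation syndrome (MAS), and its cells were taken on the same day. For the resolution group (n = 4) the CpG 1826 course was identical but collection waited until day 30. In every group the cells came from bronchoalveolar lavage fluid and were separated by adherence. A PBS group lavaged on day 30 was not analysed here, so at resolution the earlier CpG course and the later day of lavage cannot be told apart. Each level below is log2(intensity + 1) of the deposited value, each difference is a log2 difference with its moderated standard error (SE), and a change was called at an adjusted p under 0.05 (limma, Benjamini-Hochberg over 12143 genes).

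The arrays had median intensities of 51.4 to 57 and 8731 to 8952 genes above background. All 13 measured alveolar macrophage markers lay above background on every array, and their mean level was 13.98 to 14.18 in control, 14.02 to 14.10 in acute and 14.46 to 14.58 in resolution arrays. Of 14 measured lung epithelium markers 7 lay above background on every array and Sftpb and Krt18 on none. The mean level of these 14 was 7.71 to 8.13 in control, 8.73 to 9.30 in acute and 7.15 to 7.46 in resolution arrays. Of 13 NK and T cell markers 9 lay below background on every array, among them Cd3e and Cd8a, and the list's mean level was 4.75 to 5.12, 5.31 to 5.68 and 4.74 to 4.81 in the same order. The 13 measured monocyte and interstitial macrophage markers, 5 of them below background throughout, averaged 6.0 to 6.23 in control, 6.45 to 6.70 in acute and 6.33 to 6.50 in resolution arrays. Control replicate 4 stood apart on the 9 measured neutrophil markers, of which 4 lay above background on every array and Mmp9 and Camp on none: their mean level was 8.03 there, 6.83 to 7.19 on the other controls, 7.12 to 7.24 on the acute and 6.66 to 6.92 on the resolution arrays. It was also highest of all arrays on the eosinophil (5.43) and the endothelium and fibroblast (5.34) lists, though both means lay under background. Of the 4 and 7 genes measured on these lists 2 and 5 lay below background on every array, and 0 above it on every array. Without control replicate 4, 12 members were lower and 0 higher at resolution than in control. Alas2, the sole red cell marker measured, ranged from 6.99 to 15.15 over the acute arrays and from 5.54 to 7.25 over the others. In bulk RNA fewer cells of a type and less RNA per cell cannot be told apart, and the part of these shifts in the results below was not tested.

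Lysosomes are the acidic compartment in which macrophages break down what they take up, and alveolar macrophages use them to clear surfactant lipid, inhaled particles and microbes. The V-ATPase acidifies the lumen: its cytosolic V1 sector hydrolyses ATP and turns a rotor that drives protons through the V0 sector in the membrane. Cathepsins and the other hydrolases work at the low pH that the pump maintains, and their genes, with those of the pump, are known targets of TFEB and its relatives TFE3 and MITF, which bind the E-box CACGTG.

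The DNA in front of these genes was read to show which of them carry that E-box. RefSeq promoter windows (GRCm38.p6, 250 bases before to 50 after a start, searched for CACGTG, which reads the same on both strands) were found for 38 of the 47 names. A match stood in 12 of these 38 genes (31.6%), against 8.09% of 27025 genes with a window. The longer form GTCACGTG, searched on both strands and always overlapping a CACGTG match, stood in 8 of the 38 (21.1%) and in 2.55% of all genes. A match is a description of the letters and not a measured binding site. Single sites of 4 members are shown with 12 bases on each side, the E-box in capitals, because these members took different courses in the data, and each line is read 5′ to 3′ along the gene's own strand.

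Atp6v1a: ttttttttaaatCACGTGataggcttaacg
Gla: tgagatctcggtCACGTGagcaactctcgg
Mcoln1: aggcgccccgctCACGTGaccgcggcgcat
Gaa: tttctgtgcgatCACGTGtttgactctgac

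The Atp6v1a site lies at chr16:44139373-44139402 on the minus strand and its E-box starts at position -131, where -1 is the last base before the transcript's start. The Gla site lies at chrX:134601182-134601211 on the minus strand, with the E-box at position -194. The sites of Mcoln1 (chr8:3500462-3500491, plus strand, position -45) and Gaa (chr11:119267811-119267840, plus strand, position -140) stand in front of genes that did not pass the test in any comparison. The 250 bases before the start of Lamp1 (chr8:13158911-13159160, plus strand) hold 4 matches, the most of any member, and those before the start of Gla (chrX:134601006-134601255, minus strand) hold 2.

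Lamp1: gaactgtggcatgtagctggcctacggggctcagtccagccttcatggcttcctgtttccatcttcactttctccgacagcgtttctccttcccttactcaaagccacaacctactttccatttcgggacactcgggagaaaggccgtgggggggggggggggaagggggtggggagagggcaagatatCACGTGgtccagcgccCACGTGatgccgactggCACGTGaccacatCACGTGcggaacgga
Gla: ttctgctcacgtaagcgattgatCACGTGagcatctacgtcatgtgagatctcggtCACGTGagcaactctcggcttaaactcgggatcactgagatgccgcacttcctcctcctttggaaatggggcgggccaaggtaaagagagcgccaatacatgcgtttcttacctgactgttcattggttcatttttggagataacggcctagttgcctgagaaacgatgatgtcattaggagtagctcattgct

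Among the measured members with a window, CACGTG stood in 2 of the 9 that were lower at resolution than in control, Atp6v1a and Gla, and in 8 of the other 25. Atp6v1b2, Atp6v1c1, Atp6v1h, Atp6v0d2 and Ctsb, also lower at resolution, had no window and are missing from this count. Lamp1, with its 4 matches, differed by -0.07 ± 0.10 between resolution and control.

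On the resolution arrays 8 of the 15 proton pump members, the collagen-degrading cathepsin Ctsk, the galactosidase Gla and the acid lipase Lipa were lower than on the control arrays. Of the 43 members 14 were lower (32.6%) and 2 higher (4.65%). Over all genes tested 9% were lower and 9.6% higher, and over the 4835 genes at least as bright as the dimmest member 15.3% were lower and 12.6% higher. The median difference of the members was -0.25, that of all genes 0.00, and 34 of the 43 members had a negative difference. Of the 15 pump members 8 fell and all 15 had a negative difference. Of the 28 other members 6 fell, 2 rose and 19 had a negative difference. Every resolution array lay below every control array for 18 members (41.9%), against 11.2% of all genes and 18.8% of the bright ones, and above for 3 members, against 11.4% and 16.2%.

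**Figure D1:**
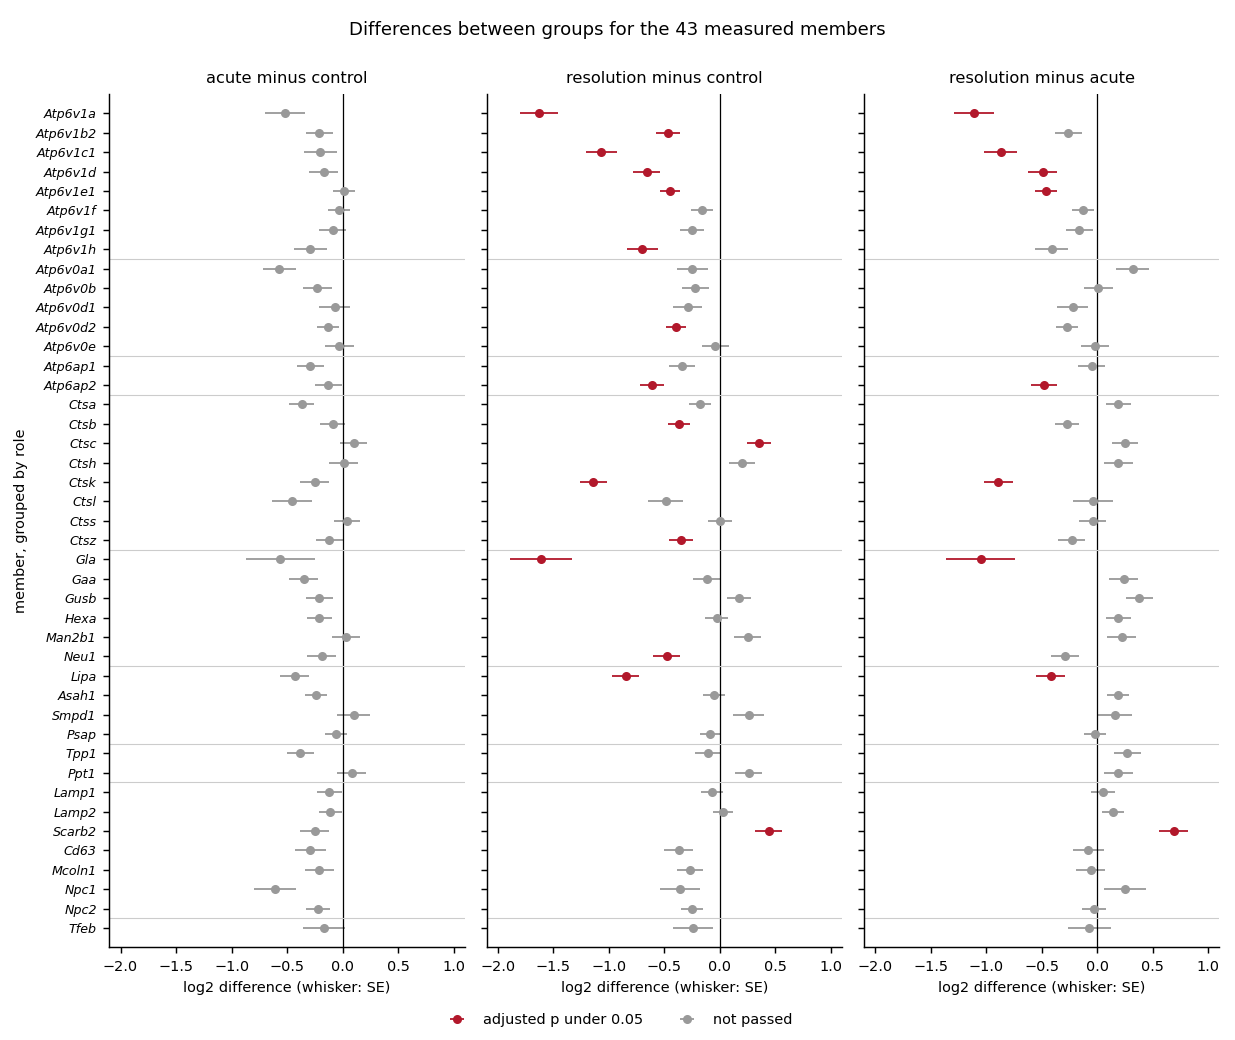
Difference between group means (log2, x axis) with its moderated SE (whisker) for each of the 43 measured members (y axis, grouped by role, grey lines between roles), in 3 panels for acute minus control, resolution minus control and resolution minus acute; red points passed adjusted p under 0.05 (limma). No point is red in the first panel, 16 are in the second and 9 in the third, and the pump members at the top lie left of 0 in the second panel.

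In the V1 sector 6 of 8 subunits (75.0%) fell at resolution, against 9% of all genes and 15.3% of the bright ones. Atp6v1a, the catalytic subunit that binds and hydrolyses ATP, stood at 11.73, 11.75, 11.26 and 11.97 on the control arrays, at 11.44, 10.99 and 11.04 on the acute arrays and at 9.83, 10.28, 10.06 and 10.01 on the resolution arrays. All 4 resolution arrays lay below every other array, while acute replicate 1 lay within the control range. The fall from control was 3.09-fold, a difference of -1.63 ± 0.17 (SE, adjusted p = 3.37e-05).

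Atp6v1c1, which ties the pump's outer stalks together, stood at 13.42, 13.43, 13.38 and 13.50 in control, at 13.18, 13.19 and 13.33 in acute and at 12.43, 12.56, 12.55 and 11.92 in resolution arrays. The resolution arrays were again the lowest, with replicate 4 lowest of all, and the groups did not overlap. Atp6v1c1 fell 2.09-fold (-1.07 ± 0.14, SE, adjusted p = 0.000221).

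Atp6v1h, a regulatory subunit needed for activity, stood at 10.38, 10.57, 10.37 and 10.55 in control and at 9.99, 9.40, 9.80 and 9.91 in resolution arrays, without overlap, and fell 1.62-fold (-0.70 ± 0.14, SE, adjusted p = 0.00349). Atp6v1d, part of the rotating central stalk, fell 1.58-fold from 13.18 ± 0.17 to 12.52 ± 0.14 (SD, n = 4 each; adjusted p = 0.00182). The non-catalytic nucleotide-binding subunit Atp6v1b2 and the stalk subunit Atp6v1e1 fell by 0.47 ± 0.11 and 0.45 ± 0.09 (SE, adjusted p = 0.0101 and 0.00508). All 6 calls held under each of 21 alternative settings. The subunits Atp6v1f, of the central stalk, and Atp6v1g1, of the outer stalks, differed by -0.16 ± 0.10 and -0.25 ± 0.11 and did not pass (adjusted p = 0.295 and 0.145).

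**Figure D2:**
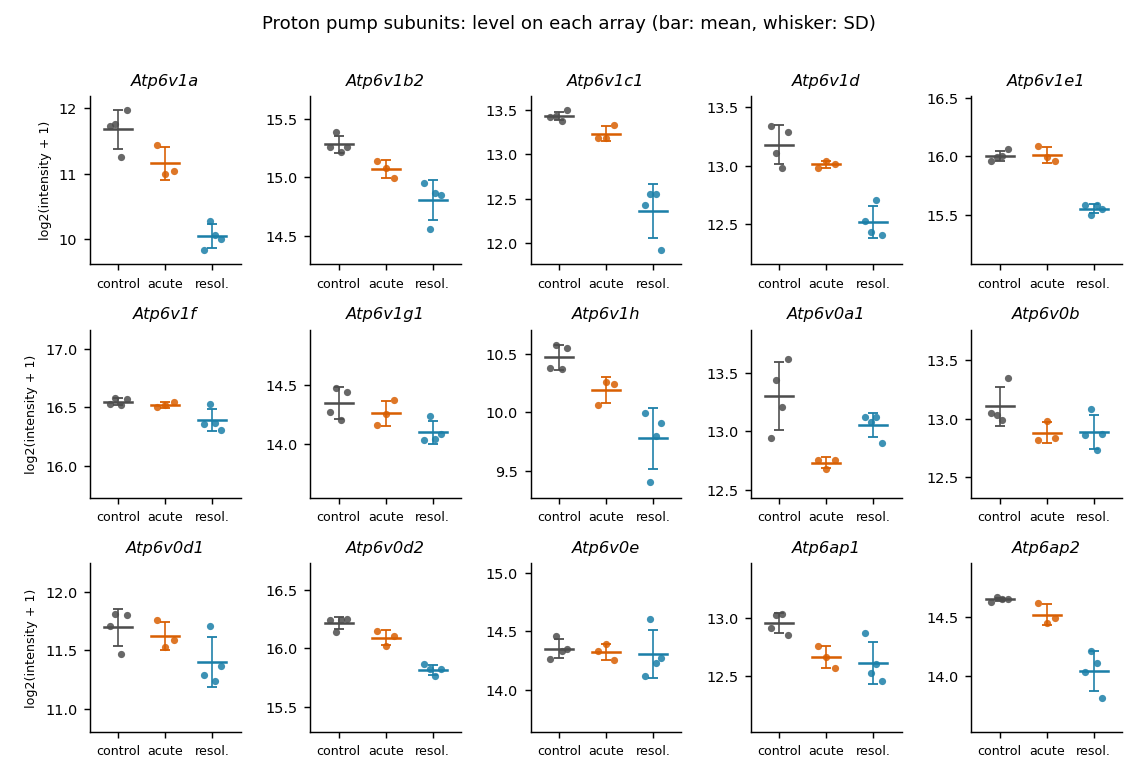
Level of the 15 measured proton pump members on each array (y axis, log2(intensity + 1), a separate range for each gene) in control (grey, n = 4), acute (orange, n = 3) and resolution (blue, n = 4) arrays; points are arrays, bars group means and whiskers SD. Resolution arrays lie below all control arrays for Atp6v1a, Atp6v1b2, Atp6v1c1, Atp6v1d, Atp6v1e1, Atp6v1h, Atp6v0d2 and Atp6ap2.

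In the membrane sector V0, 1 of 5 measured subunits fell (20.0%), beside 9% of all genes and 15.3% of the bright ones. With 5 subunits this count does not set the sector apart. Atp6v0d2, the form of the d subunit known from osteoclasts and macrophages, stood at 16.24, 16.14, 16.24 and 16.25 in control, at 16.15, 16.02 and 16.10 in acute and at 15.86, 15.82, 15.76 and 15.82 in resolution arrays. The resolution arrays had an SD of 0.04 (n = 4) and lay below all the rest. The fall was small, 1.32-fold (-0.40 ± 0.09, SE, adjusted p = 0.0102), and did not pass without control replicates 3 and 4 together (adjusted p = 0.0756). Its broadly expressed counterpart Atp6v0d1 differed by -0.29 ± 0.13 (adjusted p = 0.155).

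Of the other V0 subunits, Atp6v0a1, which forms the proton path with the rotor ring, differed by -0.25 ± 0.14 (adjusted p = 0.258), Atp6v0b of the ring by -0.22 ± 0.12 (0.235) and Atp6v0e by -0.04 ± 0.12 (0.850). The accessory protein Atp6ap2, also known as the prorenin receptor, stood at 14.63, 14.67, 14.65 and 14.65 in control and at 14.03, 14.21, 14.11 and 13.81 in resolution arrays. These groups lay far apart for their spread, and Atp6ap2 fell 1.53-fold (-0.61 ± 0.11, SE, adjusted p = 0.00192). The other accessory protein, Atp6ap1, differed by -0.34 ± 0.12 without passing (adjusted p = 0.0605).

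The cathepsins moved in both directions at resolution, with 3 of 8 measured lower (37.5%), 1 higher (12.5%) and 4 not passed. Of all genes 9% were lower and 9.6% higher. Of the bright ones 15.3% were lower and 12.6% higher, the latter near the share of the cathepsins. Ctsk, a protease known for degrading collagen and elastin, stood at 15.41, 15.78, 15.55 and 15.75 in control, at 15.43, 15.36 and 15.32 in acute and at 14.46, 14.59, 14.62 and 14.25 in resolution arrays. Every resolution array lay below every other array, while the acute arrays overlapped the controls. Ctsk fell 2.21-fold (-1.14 ± 0.12, SE, adjusted p = 5.25e-05), a call that held under all 21 alternatives.

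The remaining cathepsin calls were of small differences. Ctsb, an abundant protease with endo- and exopeptidase activity, fell 1.29-fold (-0.37 ± 0.10, SE, adjusted p = 0.025), but not when control replicate 2 or 4, or resolution replicate 3 or 4, was left out (adjusted p = 0.0582 to 0.0674). Ctsz, a carboxypeptidase, fell 1.28-fold (-0.35 ± 0.11, adjusted p = 0.0427), but not without any of the 4 control arrays, acute replicates 1 or 3 or resolution replicates 2, 3 or 4 (0.0503 to 0.108).

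Ctsc, which activates the serine proteases of granules, rose 1.27-fold, from 14.92, 14.98, 14.78 and 14.73 in control to 15.27, 15.33, 15.07 and 15.13 in resolution arrays. These groups did not overlap (0.35 ± 0.11, SE, adjusted p = 0.0416). The call ended without control replicates 1, 3 or 4, any of the 3 acute arrays or resolution replicates 1, 2 or 4 (adjusted p = 0.0516 to 0.0990).

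Ctss, which trims the invariant chain of MHC class II, stood at 15.93 ± 0.14 in control and 15.93 ± 0.08 in resolution arrays (SD, n = 4 each), a difference of 0.00 ± 0.11. Ctsl, an endopeptidase with the same known role in some cell types, differed by -0.49 ± 0.16 and did not pass (adjusted p = 0.0531), with the groups apart. The carboxypeptidase Ctsa and the aminopeptidase Ctsh differed by -0.18 ± 0.10 and 0.20 ± 0.12 (adjusted p = 0.275 and 0.284).

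Among the glycosidases 2 of 6 measured fell (33.3%), beside 9% of all genes and 15.3% of the bright ones. Gla, the alpha-galactosidase that cleaves globotriaosylceramide and is deficient in Fabry disease, stood at 10.39, 10.10, 9.93 and 9.65 in control, at 9.94, 9.0 and 9.42 in acute and at 9.25, 8.31, 8.22 and 7.82 in resolution arrays. All resolution arrays lay below all control arrays, with a wide spread of 0.61 (SD, n = 4), and resolution replicate 1 lay within the acute range. Gla fell 3.06-fold from control (-1.61 ± 0.28, SE, adjusted p = 0.00179).

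Neu1, the lysosomal sialidase, stood at 11.30, 11.51, 11.31 and 11.20 in control and at 10.75, 10.89, 10.69 and 11.06 in resolution arrays, without overlap, and fell 1.39-fold (-0.48 ± 0.12, adjusted p = 0.0125). The other 4 did not pass: Gaa, which degrades glycogen, differed by -0.12 ± 0.12, Hexa, a chain of hexosaminidase, by -0.03 ± 0.10, Gusb, the glucuronidase, by 0.17 ± 0.11 and Man2b1, the acid mannosidase, by 0.25 ± 0.12.

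Lipa, the acid lipase that frees cholesterol and fatty acids from lipid taken up by the cell, stood at 15.87, 15.91, 15.71 and 15.54 in control, at 15.39, 15.25 and 15.35 in acute and at 15.04, 14.85, 15.01 and 14.73 in resolution arrays. The 3 groups did not overlap, with the control arrays highest and the resolution arrays lowest. Against control Lipa fell 1.80-fold at resolution (-0.85 ± 0.12, SE, adjusted p = 0.00037).

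Asah1, acid ceramidase, differed by -0.05 ± 0.10, Psap, the precursor of the saposins that activate sphingolipid hydrolases, by -0.09 ± 0.09 and Smpd1, acid sphingomyelinase, by 0.26 ± 0.14 (adjusted p = 0.752, 0.567 and 0.219). The peptidase Tpp1 and the thioesterase Ppt1, both deficient in forms of neuronal ceroid lipofuscinosis, differed by -0.11 ± 0.11 and 0.26 ± 0.12 (adjusted p = 0.543 and 0.156).

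**Figure D3:**
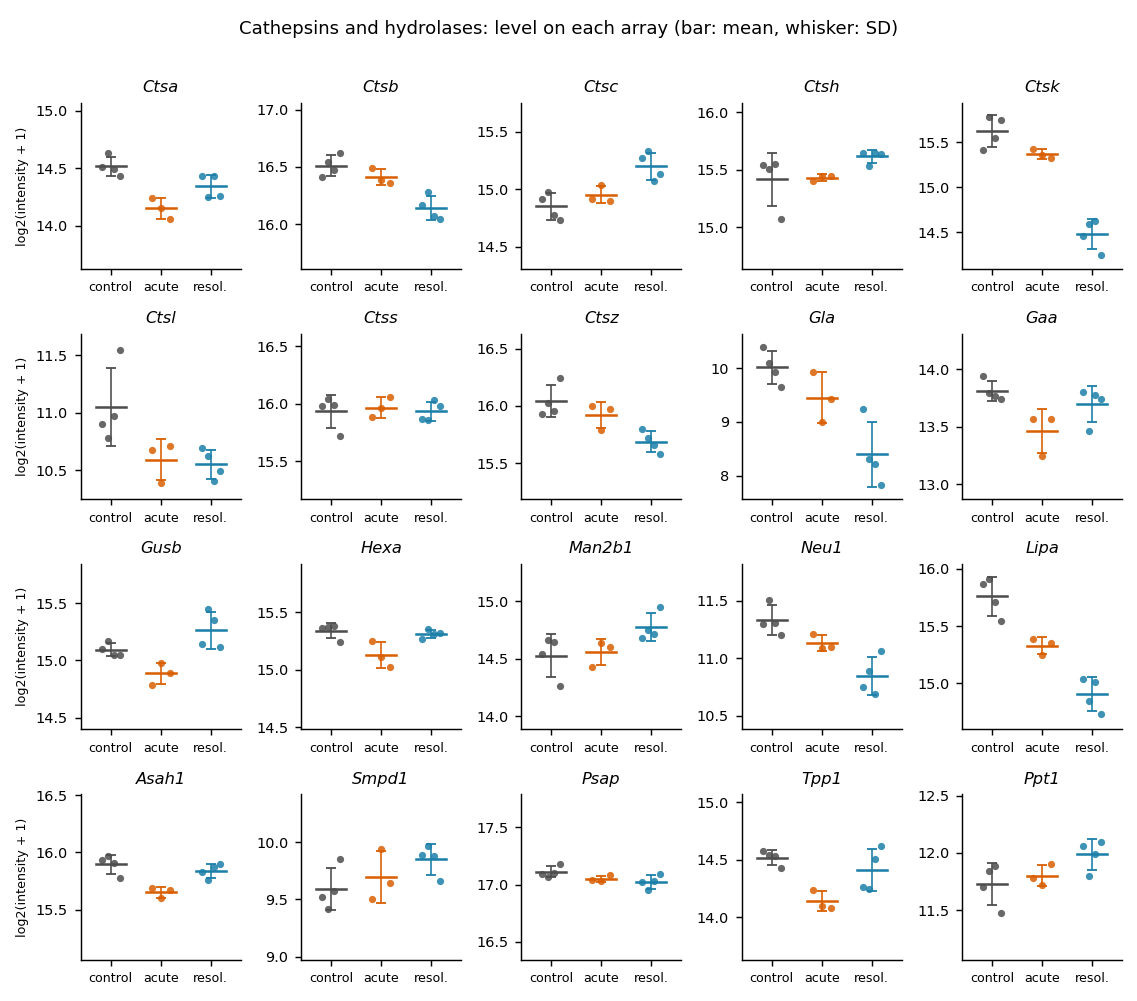
Level of the 20 measured cathepsins, glycosidases, lipid hydrolases and other soluble hydrolases on each array (y axis, log2(intensity + 1), a separate range for each gene) in control (grey, n = 4), acute (orange, n = 3) and resolution (blue, n = 4) arrays; points are arrays, bars group means and whiskers SD. Ctsa, Ctsb, Ctsk, Ctsl, Ctsz, Gla, Neu1 and Lipa have all resolution arrays below all control arrays, while Ctsc and Man2b1 have them above. For Ctsa the gap is smaller than the rounding of the plotted values, so the groups meet at 14.43 in the figure.

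Of the 7 measured membrane proteins, channel and cholesterol carriers 1 rose (14.3%) and 0 fell at resolution. Of all genes 9.6% and of the bright ones 12.6% were higher, so this count does not set the role apart. An unadjusted p under 0.05 (limma) held for 24 of all 43 members and for 3804 of all 12143 genes. Scarb2, the membrane protein LIMP-2 that carries glucocerebrosidase to the lysosome, stood at 13.26, 13.19, 13.29 and 12.91 in control, at 12.93, 12.81 and 13.00 in acute and at 13.56, 13.50, 13.52 and 13.83 in resolution arrays. Its resolution arrays were the highest of all 11. Scarb2 rose 1.36-fold over control (0.44 ± 0.12, SE, adjusted p = 0.0261), but not when control replicate 2 or 4, or resolution replicate 4, was left out (adjusted p = 0.0508 to 0.0706), and with the replicate number as a block it had adjusted p = 0.0569. The main sugar-coated proteins of the membrane, Lamp1 and Lamp2, differed by -0.07 ± 0.10 and 0.03 ± 0.09. The tetraspanin Cd63 differed by -0.37 ± 0.13 (adjusted p = 0.0626), the calcium channel Mcoln1 by -0.27 ± 0.12 (0.159), and the cholesterol carriers Npc1 and Npc2 by -0.36 ± 0.18 and -0.25 ± 0.10 (0.195 and 0.108).

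Both rises, those of Ctsc and Scarb2, ended without control replicate 4 or without resolution replicate 4, and the count of members lower ranged from 12 to 15 as single arrays were left out. Of the 16 calls 11 held under every alternative: the 6 V1 subunits, Atp6ap2, Ctsk, Gla, Neu1 and Lipa. Between the same groups 9.6% of all genes rose and 9% fell. The alveolar macrophage markers rose in 6 of 13 cases and fell in 0, and the lung epithelium markers fell in 4 of 12 tested cases. Of 6 tested neutrophil markers 2 fell and 1 rose, with a median difference of -1.07. The part of these markers in the members' differences was not tested.

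At the end of the CpG course, on day 10, no member passed the test against control (limma, 0 called also with an intensity trend and robust moderation). At an adjusted p under 0.05, 0.189% of all genes were higher and 0.0494% lower. Over those at least as bright as the dimmest member these shares were 0.186% and 0.0414%. An unadjusted p under 0.05 (limma) held for 10 of 43 members and for 1099 of all 12143 genes. The members nevertheless lay mostly on the low side: 36 of 43 had a negative difference, with a median of -0.20 against 0.00 for all genes. For 17 of the 43 (39.5%) every acute array lay below every control array, which held for 5.39% of all genes tested and for 7.96% of those at least as bright as the dimmest member. Every acute array lay above every control array for 0 members, for 4.71% of all genes and for 5.87% of the bright ones.

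The acute differences from control were small in each role. The largest in size was that of Npc1, which exports cholesterol from the lysosome, at -0.61 ± 0.19 (adjusted p = 0.332). Atp6v0a1 stood at 12.94, 13.44, 13.21 and 13.62 in control and at 12.76, 12.68 and 12.76 in acute arrays. All acute arrays lay below the controls, which were spread widely, and the difference was -0.57 ± 0.15 (SE, adjusted p = 0.238, the smallest of any member).

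The members with the smallest p in the other roles were Atp6v1a (-0.52 ± 0.18), Atp6ap1 (-0.29 ± 0.12), Ctsa (-0.37 ± 0.11), Gaa (-0.35 ± 0.13), Lipa (-0.43 ± 0.13) and Tpp1 (-0.38 ± 0.12), with adjusted p = 0.308 to 0.508. Tfeb, alone in its role, differed by -0.17 ± 0.19 (limma, adjusted p = 0.843). Tpp1 stood at 14.58, 14.54, 14.53 and 14.43 in control and at 14.24, 14.10 and 14.08 in acute arrays, which did not overlap. The mean level of all 43 members was 13.92 to 14.00 on the control arrays, 13.74 to 13.80 on the acute arrays and 13.61 to 13.69 on the resolution arrays. These ranges did not overlap. The lung epithelium markers were higher on the same acute arrays in 4 of 12 tested cases, with a median difference of 0.97, whereas the 13 alveolar macrophage markers had a median of -0.05; the part of the former in the members' low levels was not tested.

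Between the acute and the resolution arrays, both from mice given CpG, pump subunits, Ctsk, Gla and Lipa were lower at resolution and Scarb2 was higher. Of the 43 members 8 were lower and 1 was higher at resolution, where 6.69% of all genes were lower and 7.77% higher, and of the bright ones 10.5% and 9.68%. Every resolution array lay above every acute array for 11 members (25.6%) and below for 12 (27.9%), against 13.5% and 12.9% of all genes and 17.3% and 17.9% of the bright ones. Of the 15 pump members 5 fell and 13 had a negative difference, and the median over all 15 was -0.26. Of the other 28 members 3 fell, 1 rose and 15 had a positive difference, and the median over all 28 was 0.10. The comparison shares its arrays with the other comparisons, so its values are not independent of theirs. Between these groups 8 of 12 tested lung epithelium markers fell, with a median difference of -1.12. So did 3 of 6 NK and T cell markers and 3 of 5 dendritic cell markers, and 0 of these 3 lists rose. Of the 13 alveolar macrophage markers 5 rose and 0 fell. The part of these marker shifts in the members' differences was not tested.

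The lower members at resolution than in acute arrays were the V1 subunits Atp6v1a, Atp6v1c1, Atp6v1d and Atp6v1e1 (differences of -1.11 ± 0.18, -0.87 ± 0.15, -0.49 ± 0.13 and -0.46 ± 0.10), Atp6ap2 (-0.48 ± 0.12), Ctsk (-0.89 ± 0.13), Gla (-1.05 ± 0.31) and Lipa (-0.42 ± 0.13), with adjusted p = 0.000835 for Ctsk to 0.0484 for Lipa. The acute and resolution arrays overlapped for Gla and for no other of these 8. Scarb2 rose 1.61-fold (0.69 ± 0.13, adjusted p = 0.00449). Calls that held under all 21 alternatives were those of Atp6v1a, Atp6v1c1, Atp6v1e1, Ctsk and Scarb2. Atp6ap2 did not pass without acute replicate 1 (adjusted p = 0.0749), and Atp6v1d without any acute array or resolution replicate 4 (0.0511 to 0.0651). Gla did not pass without control replicate 2, acute replicates 1 or 3 or resolution replicates 2, 3 or 4 (0.05 to 0.166), and Lipa passed only without control replicate 4 among the 11 arrays left out in turn (0.0528 to 0.149 without the others). The count of members lower was 4 without acute replicate 1, and 5 without acute replicate 3, without resolution replicate 4 or with the replicate number as a block. The count of members higher was 2 without resolution replicate 4.

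Several members that did not pass had their lowest mean in the acute arrays. Gusb was at 15.10, 15.17, 15.05 and 15.05 in control, at 14.79, 14.98 and 14.89 in acute and at 15.14, 15.45, 15.35 and 15.12 in resolution arrays. The acute arrays lay below both other groups without overlap, with a difference of -0.21 ± 0.12 from control to acute and of 0.38 ± 0.12 from acute to resolution (adjusted p = 0.645 and 0.0511). Asah1 stood at 15.90 ± 0.08 (SD, n = 4), 15.66 ± 0.05 (SD, n = 3) and 15.84 ± 0.06 (SD, n = 4) in control, acute and resolution arrays, and Ctsa at 14.52 ± 0.09, 14.15 ± 0.09 and 14.34 ± 0.10. The V0 subunit Atp6v0a1 had the same order of means, at 13.30 ± 0.29, 12.73 ± 0.05 and 13.06 ± 0.10. The 3 group means were also ordered after rounding to 2 decimals, with ties counted in the order control, acute, resolution. By this order 25 members ran from control through acute down to resolution and 8 were highest in control and lowest in acute. A further 3 were highest at resolution and lowest in acute, and 5 ran upward from control through acute to resolution. The last 2 were highest in acute and counted as lowest at resolution. Ties placed Atp6v0b among the 25 (12.88 in both acute and resolution arrays, difference 0.01). They also placed Ctss among the 2 (15.93 in both control and resolution arrays, difference 0.00), so neither place is a measured order.

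Tfeb, the regulator named for these genes, showed no difference past its spread. It stood at 10.34, 9.69, 9.74 and 9.51 in control, at 9.49, 9.94 and 9.52 in acute and at 9.60, 9.76, 9.62 and 9.34 in resolution arrays. The groups overlapped, and control replicate 1 was the highest. The difference at resolution from control was -0.24 ± 0.18 (SE, adjusted p = 0.402), and its sign between the other groups turned as single arrays were left out.

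Of the relatives of Tfeb, Mitf and Tfe3 did differ at resolution. Mitf stood at 12.64, 12.46, 12.35 and 11.95 in control, at 12.71, 12.23 and 12.43 in acute and at 10.71, 11.22, 10.87 and 11.08 in resolution arrays. Its resolution arrays lay below all others, while the acute and control arrays overlapped. Mitf fell 2.6-fold from control (-1.38 ± 0.17, SE, adjusted p = 0.000128). Tfe3, named after its values were seen, as were Lamtor3 and Flcn, stood at 11.17, 11.22, 11.48 and 11.00 in control, at 11.14, 11.21 and 11.49 in acute and at 10.70, 10.24, 10.45 and 10.35 in resolution arrays. The pattern was the same, with a fall of 1.72-fold (-0.78 ± 0.14, adjusted p = 0.00201). Against the acute arrays Mitf and Tfe3 fell by 1.49 ± 0.18 and 0.85 ± 0.15 (SE, adjusted p = 0.000217 and 0.00276).

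Of 20 tested genes of the MiT family and of nutrient sensing at the lysosome, 6 fell and 0 rose from control to resolution, where 9% of all genes were lower and 9.6% higher (15.3% and 12.6% of the bright ones). Fnip2, partner of the folliculin protein that controls Tfeb and Tfe3 through the Rag GTPases, fell at least 5.54-fold (-2.47 ± 0.29, adjusted p = 9.69e-05), to a level not clearly above background. Tsc1, which restrains mTORC1, fell 2.17-fold (-1.12 ± 0.20, adjusted p = 0.00227), Lamtor3, of the Ragulator scaffold on the lysosome, 2.13-fold (-1.09 ± 0.11, 3.64e-05) and Flcn, the folliculin gene itself, 1.71-fold (-0.77 ± 0.17, 0.00642). Between acute and control arrays 0 of the 20 passed (limma), with 3 at an unadjusted p under 0.05, beside 1099 of all 12143 genes.

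**Figure D4:**
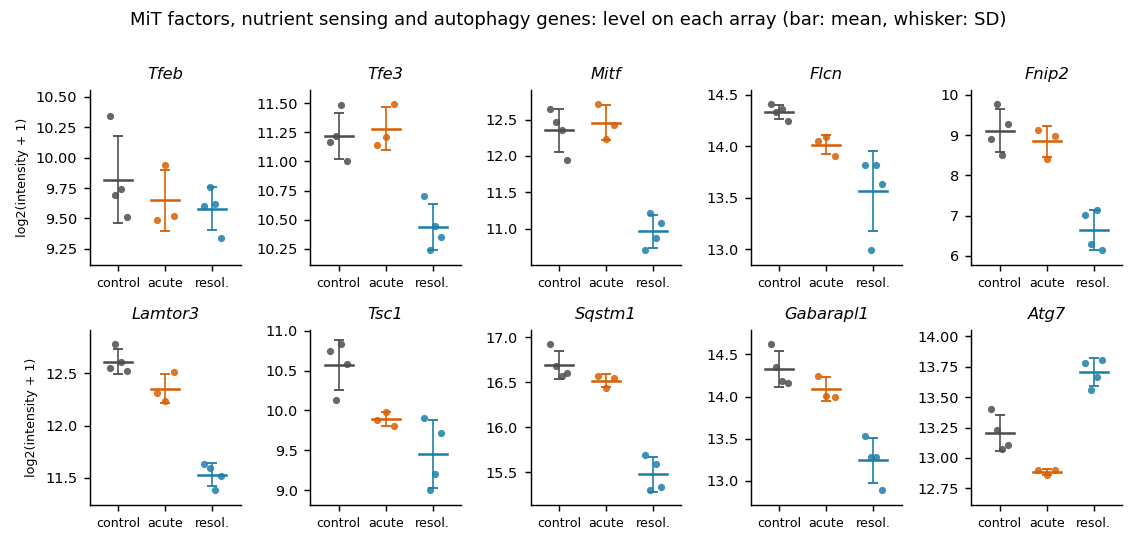
Level of Tfeb, of 6 further genes of its family and of nutrient sensing, and of the autophagy genes Sqstm1, Gabarapl1 and Atg7 on each array (y axis, log2(intensity + 1), a separate range for each gene) in control (grey, n = 4), acute (orange, n = 3) and resolution (blue, n = 4) arrays; points are arrays, bars group means and whiskers SD. Tfeb overlaps between the groups, Tfe3, Mitf, Fnip2 and Lamtor3 are lowest at resolution, and Atg7 is highest there.

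Further genes of the lysosome were read from lists of 171 names, of which 142 were tested. From control to resolution 34 fell and 8 rose (23.9% and 5.63%), against 9% and 9.6% of all genes and 15.3% and 12.6% of the bright ones. From acute to resolution 17 fell and 11 rose. The share that fell lay above the 6.69% of all genes and close to the 10.5% of the bright ones. The share that rose lay near the 7.77% of all genes and under the 9.68% of the bright ones. From control to acute 0 passed (limma), with 24 of 142 at an unadjusted p under 0.05, beside 1099 of all 12143 genes. Of the 142 differences 99 were negative. Of 16 further pump subunits and assembly or interacting proteins 3 fell and 3 rose at resolution. Tcirg1, the a3 form of the V0 subunit a, known from osteoclasts, fell 1.69-fold (-0.76 ± 0.16, adjusted p = 0.00493), and the assembly factor Tmem199 fell 1.82-fold (-0.86 ± 0.14, 0.00112), while its partner Ccdc115 rose 1.67-fold (0.74 ± 0.16, 0.00549). Without control replicates 3 and 4 together Tcirg1 and Ccdc115 did not pass (adjusted p = 0.0660 and 0.0666).

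Of 18 genes of delivery to the lysosome 6 fell and 0 rose at resolution, again beside 9% and 9.6% of all genes. Plekhm1, an adaptor that tethers vesicles to the lysosome, fell 2.67-fold (-1.42 ± 0.15, adjusted p = 3.92e-05), and Vps39, of the HOPS tether, and Gga2, a sorting adaptor, fell 1.85-fold and 1.80-fold. Of 32 further membrane proteins and transporters 11 fell and 3 rose. The metal transporter Slc11a1 fell 5.61-fold, the chloride-proton exchanger Clcn7, which works beside the pump, 2.47-fold (-1.30 ± 0.27, adjusted p = 0.00496) and the glycoprotein Gpnmb 2.14-fold (-1.10 ± 0.17, 0.000626).

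Of 7 further proteases 2 fell, Scpep1 (-0.80 ± 0.13) and Lgmn (-0.53 ± 0.11), and 0 rose. Of 23 further hydrolases and activators 3 fell (13.0%), namely Hgsnat (-0.71 ± 0.18), Acp2 (-0.65 ± 0.11) and Sumf1 (-0.49 ± 0.14), and 0 rose. Of all genes 9% were lower and 9.6% higher, and of the bright ones 15.3% and 12.6%. The share of these hydrolases that fell lay between the 9% and the 15.3%, so that count does not set the list apart. The call of Hgsnat ended without control replicate 2 (adjusted p = 0.0520) and that of Sumf1 when control replicate 1 or 2, or resolution replicate 1, 3 or 4, was left out (0.0552 to 0.0768). From acute to resolution 2 of these 23 hydrolases rose and 0 fell. The risers were the sulfatase Arsa (0.66 ± 0.13, adjusted p = 0.00482) and the phospholipase Pla2g15 (0.61 ± 0.14, 0.0129, and 0.0614 without acute replicate 2). Their share of 8.7% lay near the 7.77% of all genes and the 9.68% of the bright ones that rose.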

How the data were processed

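Alveolar macrophage RNA was hybridised to 11 Affymetrix arrays, and the design text speaks of 11 mice without tying arrays to animals. Affymetrix Expression Console produced the values, per the submitters' processing notes; version, algorithm and genome build were not given in the sources used here. What the authors deposited are linear-scale intensities, and these were taken as log2(intensity + 1) with no further scaling. Symbols came from the platform annotation; of several clusters for a symbol the brightest on average was used. A cluster was tested if at least 3 arrays exceeded their own 40th percentile. Background is the 90th percentile of 23 antigenomic probe sets per array, and "at least" marks a fold whose lower group averaged no more than 1 SD above it. Group means were estimated with limma 3.58.1 (R 4.3.3) from all arrays together and without a replicate block, two-sided, with Benjamini-Hochberg adjustment over all genes tested; the procedure was tested on simulated data. The number of arrays limits the precision, and beyond the word biological in the titles nothing says how replicates were obtained. Members, lists and tests were chosen with earlier results of these data known. Named were all members past the threshold, the member with the smallest p in a role without any, and up to 3 genes of each further list with the largest changes. Alternatives were a pseudocount of 16, no filter or one at the 60th percentile, median scaling, quantile normalization, the replicate block, an intensity trend, pairwise fits, cluster means and arrays left out.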

Additional observations from a re-analysis of the deposited data

Results flagged for a closer look

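In groups of 4 arrays, a single array stood apart from the other 3 by Dixon's criterion, which sets the gap to the nearest array against the whole range, in 5 of the 86 combinations of a member with the control or resolution group; chance gives about 1 in 20. Control replicate 4 had Atp6v0b at 13.35, against 13.05 in the nearest control, and Ctsh at 15.07, against 15.51. Control replicate 2 had Atp6v0d2 at 16.14, against 16.24. Resolution replicate 2 had Ctsh at 15.53, against 15.64, and Lamp1 at 15.19, against 14.98.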

How the results depend on the processing

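Against control at resolution, the count of members lower (14) was 11 to 17 under 21 alternatives, while that of members higher (2) was 1 without the filter, with median scaling, with the replicate block or with a pairwise fit, 0 without control replicates 3 and 4 together, and 0 to 2 as single arrays were left out. Those 2 control arrays also took the genes higher from 1166 to 692. From acute to resolution 8 members were lower, 5 with the replicate block and 4 to 8 as single arrays were left out; 1 was higher, 2 with a pseudocount of 16, a filter at the 60th percentile or an intensity trend, and 1 to 2 as single arrays were left out. Genes higher (943) and lower (812) were 553 to 998 and 515 to 848 as single arrays were left out. Against control in the acute group 0 members passed under any alternative, and 23 genes were higher and 6 lower: 41 and 15 with an intensity trend, 13 and 3 with a pairwise fit, 3 lower with median scaling or quantile normalization, 10 lower without control replicates 3 and 4 together, and 5 to 23 higher and 0 to 8 lower as single arrays were left out. The causes were not tested. Tfeb changed sign between acute and control without control replicate 1 (0.00, range -0.31 to 0.00 as single arrays were left out), and between resolution and acute with the replicate block (0.02) and without acute replicate 2 or resolution replicate 4 (0.07 and 0.01, range -0.15 to 0.07). Same-numbered arrays had correlations of their deviations between -0.12 and 0.09, so the numbers were not treated as pairs. With the replicate block the calls of Ctsb (adjusted p = 0.0548), Ctsz (0.0849) and Scarb2 (0.0569) against control ended, as did those of Atp6v1d (0.0605), Atp6ap2 (0.0602) and Lipa (0.105) against acute.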

Other observations

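Of 20 tested autophagy genes 2 fell and 1 rose at resolution against control (10% and 5%), near or under the 9% lower and 9.6% higher of all genes, so the counts say nothing particular of this list. Sqstm1, the adaptor p62 that brings cargo to autophagosomes, stood at 16.92, 16.68, 16.57 and 16.60 in control, at 16.57, 16.43 and 16.55 in acute and at 15.69, 15.30, 15.59 and 15.33 in resolution arrays, all below the rest. It fell 2.32-fold (-1.21 ± 0.13, SE, adjusted p = 3.72e-05, limma). Gabarapl1, of the membrane-bound ATG8 family, fell 2.12-fold (-1.08 ± 0.15, adjusted p = 0.000361). Atg7, the enzyme that activates ATG8 proteins for their attachment to lipid, rose 1.42-fold (0.50 ± 0.11, adjusted p = 0.00699), though not without control replicates 3 and 4 together (0.0842), and rose 1.77-fold over the acute arrays (0.82 ± 0.12, 0.000669).

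Of 6 tested cathepsin inhibitors 1 rose and 1 fell at resolution against control, beside 9.6% higher and 9% lower of all genes, and with 6 genes neither count sets the list apart. Serpinb1a, an inhibitor of neutrophil serine proteases such as cathepsin G, rose 1.72-fold (0.78 ± 0.10, SE, adjusted p = 0.000241), and Cstb, a cystatin that inhibits cysteine cathepsins in the cytosol, fell 1.38-fold (-0.46 ± 0.11, 0.00899), though not without control replicates 3 and 4 together (0.0908). Against the acute arrays Serpinb1a rose 1.65-fold (0.72 ± 0.11, adjusted p = 0.00113).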
